A study of Mus musculus with 24 samples.

Results

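The genes described are 9 members of the retinoic acid pathway: the receptors *Rara*, *Rarb* and *Rarg*, the binding proteins *Crabp1* and *Crabp2*, the hydroxylases *Cyp26a1* and *Cyp26b1*, the reductase *Dhrs3* and the dehydrogenase *Aldh1a2*. They were chosen by name for their role in retinoic acid signaling and metabolism, and all 9 were among the 22889 entries of the deposited expression table. The study made motor neurons of an oculomotor and of a spinal kind from mouse embryonic stem cells and sequenced RNA from sorted cells. Oculomotor cultures came from the Islet1-GFP/NesEPhox2A line, in which an enhancer of the nestin gene, active in neural progenitors, drives *Phox2a*, and received SAG, a hedgehog pathway agonist, at 250 nM and FGF8 at 100 ng/ml during 5 days of patterning. Spinal cultures came from the Hb9-GFP line and received SAG at 500 nM and retinoic acid at 100 nM over the same number of days, the latter of which the oculomotor cultures did not receive. Each culture was sorted into a GFP-positive and a GFP-negative fraction, with 6 samples in each of the 4 groups.

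Retinoic acid is made from vitamin A in steps: retinol is oxidised to retinaldehyde, which retinaldehyde dehydrogenases oxidise to retinoic acid, while retinaldehyde reductases lead it back to retinol. Retinoic acid binds nuclear receptors that pair with RXR proteins on DNA and regulate target genes, among them genes of the pathway itself, and CYP26 enzymes clear it. In the embryo it patterns the hindbrain and spinal cord along the head-to-tail axis, and it is used in culture to give stem cell-derived neurons a spinal identity.

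Line, reporter and patterning factors changed together between the cultures, so their parts in a difference between oculomotor and spinal samples cannot be told apart. The labels do not say whether the 6 samples of a group came from separate cultures, and if they did not, the p-values measure only the spread between these samples. In bulk samples such as these, fewer cells of a type and less RNA per cell cannot be told apart. Depth, estimated from the steps of the values, ran from 752529 to 7675428 reads per sample. It was 752529 to 4642207 reads in the 16 samples numbered 1 to 4 and 4822576 to 7675428 in the 8 samples numbered 5 and 6. A single read in a transcript of 2 kilobases gave between 0.0651 and 0.664 RPKM (reads scaled by transcript length and by the mapped reads of the sample), so levels under 1 RPKM rest on few reads.

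Some spinal libraries stood apart from their groups. In the GFP-positive sample 4, *Isl1* was at 7.63 RPKM against 50.4 to 123 RPKM in the other samples of its group, and *Nanog*, a pluripotency gene, was at 156 RPKM. In the GFP-negative sample 4, *Mnx1*, the gene also called Hb9, was at 69.4 RPKM and *Nanog* at 185 RPKM. In the GFP-negative sample 2, 68.8% of the summed RPKM lay in the gene models *Gm10800*, *Gm10801* and *Gm21738*. In the GFP-positive sample 2, 24.3% lay in *Gm10800*, *mt-Rnr2* and *Gm10801*, while the 3 highest genes of the other spinal GFP-positive samples held 6.56% to 11.2%. Sample 2 was also the highest of both spinal groups for *Rarb* and *Cyp26b1*, whose differences are also given without it.

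Markers of cell types were summed per sample to check the labels. Motor neuron markers (8 genes) had medians of 635 RPKM in the oculomotor and 265 RPKM in the spinal GFP-positive samples, against 18.1 and 29.3 RPKM in the GFP-negative samples. Neuron markers (5 genes) had medians of 1144 and 528 RPKM in the same GFP-positive groups, against 40.6 and 84.8 RPKM. The spinal samples of number 4 went against their labels: motor neuron markers summed to 61.3 RPKM in the GFP-positive and 89.9 RPKM in the GFP-negative sample, and neuron markers to 66.9 and 83.6 RPKM. In the other 5 spinal pairs and all 6 oculomotor pairs both sums were higher in the GFP-positive sample. The spinal pair of number 4 was kept in the fits, and calls between the spinal fractions are also given without it. The markers *Foxp1* and *Lhx1* of the lateral motor column summed to medians of 6.50 RPKM in oculomotor and 19.9 RPKM in spinal GFP-positive samples, against 9.49 and 8.80 RPKM in the GFP-negative ones. Neural progenitor markers (7 genes) had medians of 43.3 and 257 RPKM in the GFP-positive and 187 and 818 RPKM in the GFP-negative samples of the oculomotor and spinal cultures. Mesoderm and mesenchyme markers (8 genes) had medians of 3.15, 12.0, 1.94 and 9.72 RPKM in oculomotor GFP-positive, oculomotor GFP-negative, spinal GFP-positive and spinal GFP-negative samples. Neural crest markers (3 genes) had medians of 0, 0.775, 0.457 and 0.631 RPKM in the same order. The sums for pluripotent cells and endoderm are given beside *Rarg* and *Cyp26a1*.

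Between the GFP-positive groups, which asks how the sorted oculomotor and spinal motor neurons differ, 3 of the 9 members passed an adjusted p of 0.05 in limma, beside 0.603% of the 19240 genes tested. Between the GFP-negative groups 4 of the 9 passed, beside 0.960% of 22179 genes. Between the fractions, which asks how the sorted neurons differ from the cells around them, 2 of the 9 passed in the oculomotor cultures, beside 6.15% of 22179 genes. In the spinal cultures 2 of the 9 passed, beside 1.23%. For the interaction of culture and fraction, which tests whether the fractions differ unequally in the cultures, limma called 0 of the 9, beside 0.320% of all genes, and 1 of the 9 had an unadjusted p under 0.05. The comparisons share samples with each other. Differences are given as oculomotor minus spinal, or GFP-positive minus GFP-negative, on the log2(RPKM + 1) scale. Among all genes called between the GFP-negative groups, 91 were higher and 122 lower in oculomotor samples, and 151 and 133 after scaling by the median of ratios. Among those called between the oculomotor fractions, 845 were higher and 519 lower in GFP-positive samples, and 884 and 841 after scaling.

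The number of all genes called, against which the members are read, moved by over 1.5 times with some single samples left out. Between the GFP-positive groups 116 genes were called, and 69 without oculomotor sample 2, 67 without oculomotor sample 6 and 181 without spinal sample 3, while the fit of all 24 samples called 342. Between the GFP-negative groups 213 were called, and 115, 130 and 141 without oculomotor samples 2, 4 and 6, and 444 and 128 without spinal samples 4 and 6. For the spinal fractions 272 were called, and 634 without GFP-positive sample 4. For the interaction 71 were called, and 41 without oculomotor GFP-positive sample 2, 131 and 44 without spinal GFP-positive samples 3 and 5, and 43 and 234 without spinal GFP-negative samples 1 and 4. For the 1364 genes called between the oculomotor fractions no single sample did so. With only the 12 samples of the groups compared, 76 genes were called between the GFP-negative groups, 2388 for the fractions of the oculomotor and 4 for those of the spinal cultures. Of these 4 genes, 1 was a member, *Cyp26a1*.

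**Figure D1:**
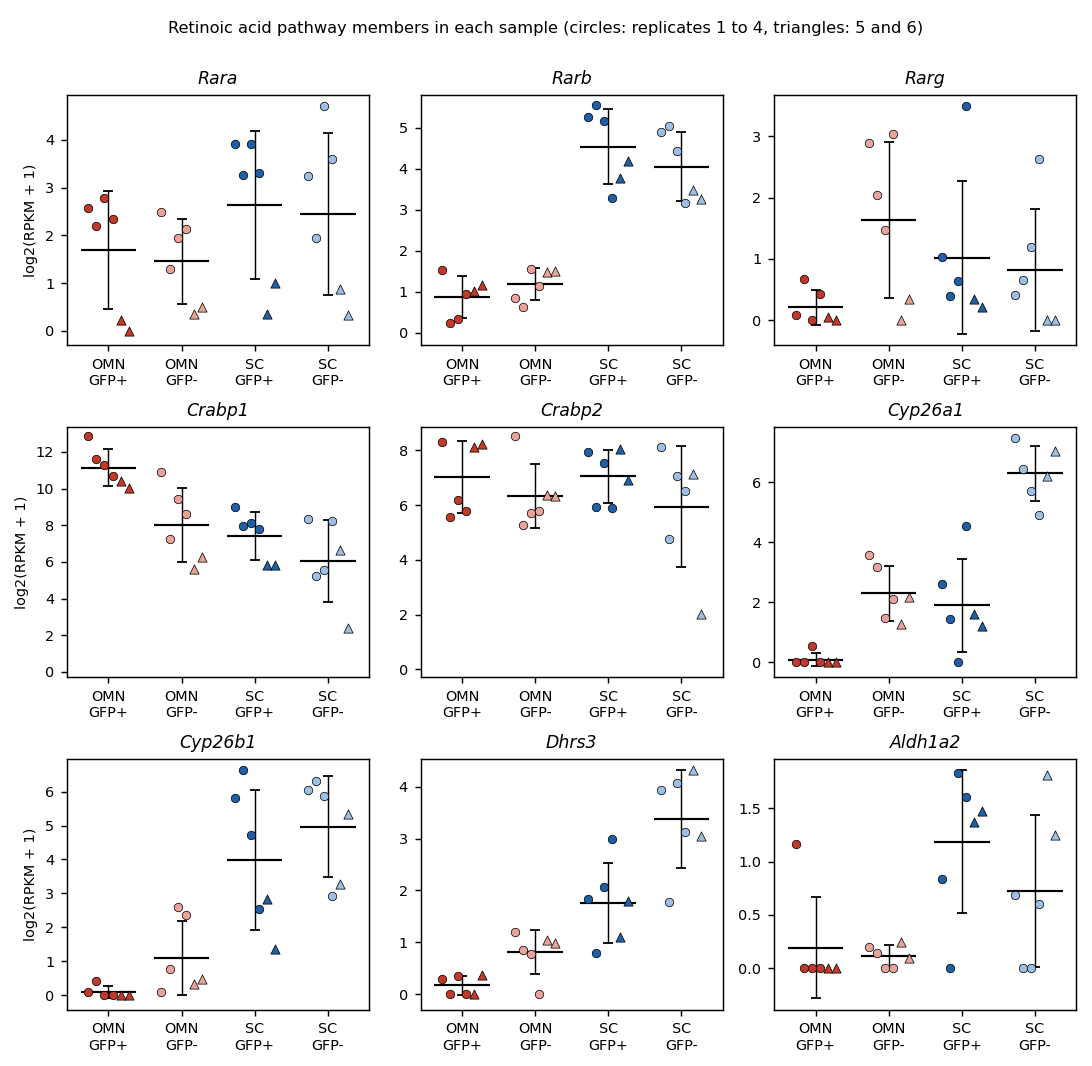
Level of each member in every sample on the log2(RPKM + 1) scale for the 4 groups, with circles for samples 1 to 4 and triangles for samples 5 and 6, and with the group mean and SD as lines. *Rarb*, *Cyp26b1* and *Dhrs3* lie higher in all 6 spinal GFP-positive samples than in any of the 6 oculomotor ones, and *Crabp1* lies lower.

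*Rarb* encodes retinoic acid receptor beta and lies on the minus strand at chr14:16430839-16819156 (GRCm38). Its level in oculomotor GFP-positive samples was 0.179 RPKM at the lowest, 0.982 at the median and 1.92 at the highest. In spinal GFP-positive samples these levels were 8.77, 25.8 and 45.5 RPKM. The groups did not overlap: the lowest spinal sample, number 4, lay above the highest oculomotor sample. The difference was -3.65 (SE 0.43, adjusted p 0.000788), with oculomotor lower in 6 of 6 samples. In samples 1 to 4 the difference was -4.04 and in samples 5 and 6 it was -2.88, which did not pass alone in limma (adjusted p 0.0930). The call held in 12 of 12 fits that left out 1 sample, and without spinal sample 2 the difference was -3.45 (adjusted p 0.00216).

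In the GFP-negative samples *Rarb* was at 0.541, 1.5 and 1.96 RPKM (lowest, median and highest) in oculomotor cultures and at 7.99, 15.4 and 31.7 RPKM in spinal cultures. These groups did not overlap either, so that all 12 spinal samples lay above all 12 oculomotor samples. The difference was -2.85 (SE 0.40, adjusted p 0.000486), lower in 6 of 6 oculomotor samples, and it was -3.34 in samples 1 to 4 and -1.88 in samples 5 and 6. Without spinal sample 2 it was -2.65 (adjusted p 0.00140). Between the spinal fractions the GFP-positive sample was the higher of the pair in 6 of 6 pairs, by 0.49 (SE 0.40, adjusted p 0.761), which did not pass. Between the oculomotor fractions the difference was -0.32 (SE 0.40, adjusted p 0.822), with the GFP-positive sample lower in 5 of 6 pairs.

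*Rara* encodes receptor alpha and lies on the plus strand at chr11:98927818-98974942. Its lowest, median and highest levels were 0, 3.83 and 5.91 RPKM in oculomotor GFP-positive samples and 0.285, 2.16 and 4.66 RPKM in oculomotor GFP-negative samples. They were 0.285, 8.82 and 14.2 RPKM in spinal GFP-positive and 0.258, 5.69 and 25.3 RPKM in spinal GFP-negative samples. In every group samples 5 and 6 lay below samples 1 to 4: the former reached at most 1.01 RPKM and the latter were at least at 1.45 RPKM. The numbers 5 and 6 are also the deeper libraries, and the part of the library in this split was not tested. The paper reports different sequencing platforms and read lengths, which the labels do not assign to samples. The difference between the GFP-positive groups was -0.94 (SE 0.74, adjusted p 0.691), with oculomotor lower in 6 of 6 samples of the same number. The difference between the GFP-negative groups was -1.0 (SE 0.75, adjusted p 0.646), lower in 5 of 6. With 1 sample left out the difference ran from -1.40 to -0.61 between the GFP-positive groups. Between the GFP-negative groups it then ran from -1.42 to -0.55.

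*Rarg* encodes receptor gamma and lies on the minus strand at chr15:102234938-102257517. Its lowest, median and highest levels were 0, 0.0453 and 0.595 RPKM in oculomotor GFP-positive and 0, 2.46 and 7.22 RPKM in oculomotor GFP-negative samples. The GFP-negative samples 1 to 4 lay above all 6 GFP-positive samples, while GFP-negative samples 5 and 6 were at 0 and 0.274 RPKM. The difference between these fractions was -1.43 (SE 0.57, adjusted p 0.158), with the GFP-positive sample lower in 5 of 6 pairs. It passed in 3 of 10 alternatives: sample quality weights (adjusted p 0.0244), the replicate block (0.0221) and blocks within each culture (0.0128), the last of which was added once the data had been seen. These 3 fits called 3795, 2361 and 3644 of all genes in that order, against 1364 in the main fit. Over all 10 alternatives the adjusted p ran from 0.0128 to 0.592, and the *Rarg* difference from -2.89 to -0.15. It was -2.07 in samples 1 to 4 and -0.15 in samples 5 and 6. In spinal cultures the levels were 0.159, 0.438 and 10.3 RPKM in GFP-positive and 0, 0.454 and 5.21 RPKM in GFP-negative samples. Sample 4 was the highest of both spinal groups.

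Pluripotent cell markers and *Rarg* were both lower in the oculomotor GFP-positive than in the GFP-negative samples at the median. The 5 markers summed to 0.315, 58.2 and 258 RPKM (lowest, median and highest) in oculomotor GFP-positive samples and to 680, 6425 and 9872 RPKM in the GFP-negative ones. In spinal samples the sums were 14.3, 922 and 12396 RPKM in the GFP-positive and 74.4, 231 and 5753 RPKM in the GFP-negative fraction. *Dppa5a* was the most abundant of the 5 in each group, and none of the 5 was at 0 in all 6 samples of a group. Between the oculomotor fractions 4 of the 5 were called lower in the GFP-positive samples. Among the oculomotor GFP-negative samples the highest sum, 9872 RPKM in sample 5, went with *Rarg* at 0, and the lowest, 680 RPKM in sample 4, with the highest *Rarg*, 7.22 RPKM. In spinal GFP-positive sample 5 the sum was 12396 RPKM with *Rarg* at 0.269 RPKM, and in sample 4 it was 5111 RPKM with *Rarg* at 10.3 RPKM. In spinal GFP-negative sample 4 both were the highest of their group, the sum at 5753 RPKM and *Rarg* at 5.21 RPKM. In the oculomotor GFP-negative and both spinal groups samples 5 and 6 lay below samples 1 to 4 for *Rarg*, as they did for *Rara*. The parts of these cells and of the library in the levels of *Rarg* were not tested.

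RPKM is per length, so the receptors can be set against each other. The 3 receptor genes summed to medians of 4.85 RPKM in oculomotor GFP-positive, 5.87 in oculomotor GFP-negative, 38.6 in spinal GFP-positive and 29.7 in spinal GFP-negative samples. *Rarb* held a median of 77.3% of this sum in spinal GFP-positive samples (31.3% to 95.8%) and was the highest of the 3 in 5 of 6. In spinal GFP-negative samples its median share was 83.3%, and it was the highest in 4 of 6. In oculomotor GFP-positive samples *Rara* held a median of 73.8% (0% to 95.8%) and was the highest in samples 1 to 4. *Rarb* was the highest in samples 5 and 6, where *Rara* was at 0.179 and 0 RPKM. In oculomotor GFP-negative samples *Rarg* had the highest median share, 40.6%, and was the highest in 3 of 6, with *Rarb* the highest in samples 5 and 6. The shares thus also vary with the lower *Rara* of samples 5 and 6 in every group. The part of the library in them was not tested.

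**Figure D2:**
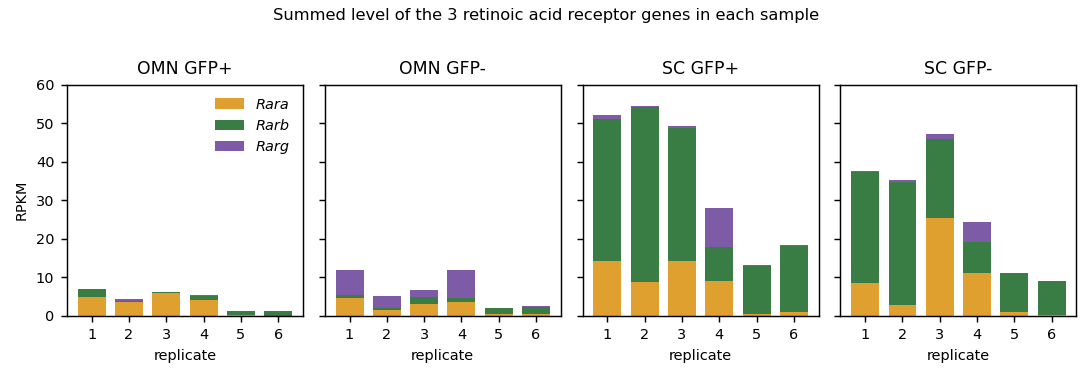
Summed RPKM of the 3 receptor genes in every sample, 1 panel per group, with the sample number on the horizontal axis and the bar divided into *Rara*, *Rarb* and *Rarg*. The sums run from 1.24 to 6.90 RPKM in oculomotor GFP-positive and from 13.2 to 54.5 RPKM in spinal GFP-positive samples.

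*Crabp1* encodes a cytosolic protein that binds retinoic acid and lies on the plus strand at chr9:54764748-54773110. In oculomotor GFP-positive samples its level was 1051 RPKM at the lowest, 2083 at the median and 7366 at the highest. In spinal GFP-positive samples it was 55.5, 233 and 505 RPKM. The groups did not overlap, and in oculomotor GFP-positive sample 1 *Crabp1* was among the 3 highest genes of the library. The difference was 3.73 (SE 0.64, adjusted p 0.0173), higher in 6 of 6 oculomotor samples. It was 3.40 in samples 1 to 4 and 4.39 in samples 5 and 6, and the call held in 12 of 12 fits that left out 1 sample. In samples 1 to 4 alone it did not pass in limma (adjusted p 0.0782).

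In the GFP-negative samples *Crabp1* was at 48.9, 273 and 1919 RPKM in oculomotor and at 4.22, 72.8 and 319 RPKM in spinal cultures (lowest, median and highest). These groups overlapped, and the difference was 1.96 (SE 0.93, adjusted p 0.430), with oculomotor higher in 5 of 6 samples of the same number. With 1 sample left out it ran from 1.23 to 2.44. Between the oculomotor fractions the difference was 3.12 (SE 0.93, adjusted p 0.0445), with the GFP-positive sample higher in 6 of 6 pairs. The groups overlapped there, since GFP-negative sample 1 lay above 3 of the GFP-positive samples. This call held in 2 of 12 fits that left out 1 sample, those without GFP-negative sample 1 (adjusted p 0.0186) or GFP-negative sample 3 (adjusted p 0.0425). The highest adjusted p of these fits was 0.113, without GFP-negative sample 5. Without GFP-positive samples 1 to 6 in turn it was 0.0959, 0.0822, 0.0761, 0.0663, 0.0580 and 0.0504, and without GFP-negative samples 2, 4 and 6 it was 0.0950, 0.0571 and 0.11. The call between the oculomotor fractions passed in 8 of 10 other alternatives, and not in samples 1 to 4 alone or samples 5 and 6 alone. Between the spinal fractions the difference was 1.36 (SE 0.93, adjusted p 0.678), higher in 4 of 6 pairs. With 1 sample left out this difference ran from 0.62 to 1.81. The interaction was 1.77 (SE 1.31, adjusted p 0.835).

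*Crabp2* encodes the second of these binding proteins and lies on the plus strand at chr3:87948666-87953376. It was above 1 RPKM in 24 of 24 samples, from 3.09 to 371 RPKM, with group medians of 174 RPKM in oculomotor GFP-positive, 66.6 in oculomotor GFP-negative, 152 in spinal GFP-positive and 111 in spinal GFP-negative samples. The groups overlapped in all 4 comparisons. The difference between the GFP-positive groups was -0.02 (SE 0.60, adjusted p 0.998), with oculomotor higher in 3 of 6 samples of the same number. *Crabp1* held a median of 96.3% of the summed RPKM of the pair in oculomotor GFP-positive samples and exceeded *Crabp2* in 6 of 6. Its median share was 81.9% in oculomotor GFP-negative, 63.5% in spinal GFP-positive and 55.7% in spinal GFP-negative samples, in each of which it exceeded *Crabp2* in 4 of 6. *Crabp2* was the higher in samples 5 and 6 of the former 2 groups, and in samples 3 and 5 of the last. In the former 2, *Crabp1* was at most 76.5 and 56.5 RPKM in samples 5 and 6. In samples 1 to 4 it was at least 149 and 223 RPKM. The part of the library was not tested.

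*Cyp26a1* encodes a hydroxylase that clears retinoic acid and lies on the plus strand at chr19:37697798-37701536. It was listed at 0 in 5 of 6 oculomotor GFP-positive samples and at 0.441 RPKM in sample 3. In oculomotor GFP-negative samples its lowest, median and highest levels were 1.40, 3.44 and 10.9 RPKM. The fractions did not overlap in the oculomotor cultures. The difference was -2.21 (SE 0.56, adjusted p 0.0176), with the GFP-positive sample lower in 6 of 6 pairs. This call held in 11 of 12 fits that left out 1 sample, and without GFP-negative sample 1 the adjusted p was 0.0521. The difference was -2.45 in samples 1 to 4 and -1.72 in samples 5 and 6. Its size depended on the offset added to the RPKM: with a pseudocount of 0.1 RPKM in place of 1 RPKM it was -4.85 (SE 0.84).

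In spinal cultures *Cyp26a1* was at 0, 1.86 and 22.2 RPKM in the GFP-positive and at 28.8, 79.9 and 176 RPKM in the GFP-negative samples. The fractions did not overlap, although sample 4 was the highest of the GFP-positive and the lowest of the GFP-negative group. The difference was -4.40 (SE 0.56, adjusted p 0.000267), lower in 6 of 6 pairs, and -3.99 in samples 1 to 4 and -5.22 in samples 5 and 6. Without both spinal samples of number 4 it was -5.21 (adjusted p 5.03e-07), and over the alternatives the adjusted p ran from 5.03e-07 to 0.127. With a pseudocount of 0.1 RPKM it was -5.28 (SE 0.84). The interaction, which sets the fractions of the cultures against each other, was 2.19 (SE 0.79, unadjusted p 0.0111, adjusted p 0.424). Without both spinal samples of number 4 it was 2.99 and passed (adjusted p 0.0185), and over the alternatives its adjusted p ran from 0.0185 to 0.979. The interaction also depended on the offset: a pseudocount of 0.1 RPKM gave 0.43 (SE 1.19, unadjusted p 0.723).

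The GFP-negative groups did not overlap for *Cyp26a1*, with a difference of -4.00 (SE 0.56, adjusted p 0.000485) that was lower in 6 of 6 oculomotor samples. This call held in 12 of 12 fits that left out 1 sample. In the same comparison 3 of 5 endoderm markers, *Sox17*, *Gata4* and *Gata6*, were called lower in oculomotor samples, with a median difference of -1.86 over the 5. The GFP-positive groups overlapped, with spinal sample 3 also listed at 0, and the difference of -1.81 (SE 0.58, adjusted p 0.249) did not pass, with oculomotor lower in 5 of 6 samples of the same number. It was -3.91 with a pseudocount of 0.1 RPKM.

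Endoderm markers and *Cyp26a1* were both lower in the GFP-positive than in the GFP-negative samples of each culture at the median. The 5 markers summed to 0.662, 1.07 and 9.17 RPKM (lowest, median and highest) in spinal GFP-positive and to 4.08, 78.1 and 270 RPKM in spinal GFP-negative samples. In oculomotor samples the sums were 0, 0.198 and 0.950 RPKM in the GFP-positive and 5.06, 11.1 and 16.1 RPKM in the GFP-negative fraction. *Ttr* was the most abundant of the 5 in the spinal GFP-negative samples (median 36.9 RPKM), and *Afp* was at 0 in all samples of both GFP-positive groups. Between the spinal fractions 4 of the 5 were called lower in the GFP-positive samples. In the oculomotor cultures limma called 0 of the 5 between the fractions, with 3 of 5 at an unadjusted p under 0.05. Among the spinal GFP-positive samples the highest *Cyp26a1*, 22.2 RPKM in sample 4, went with an endoderm sum of 1.74 RPKM, and the highest sum, 9.17 RPKM in sample 2, with *Cyp26a1* at 1.70 RPKM. In spinal GFP-negative sample 4 both were the lowest of their group, *Cyp26a1* at 28.8 RPKM and the sum at 4.08 RPKM. The part of these cells in the levels of *Cyp26a1* was not tested.

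*Cyp26b1* encodes a second hydroxylase of this family and lies on the minus strand at chr6:84571414-84593908. It was listed at 0 in 4 of 6 oculomotor GFP-positive samples, with 0.0805 RPKM in sample 1 and 0.355 RPKM in sample 2. In spinal GFP-positive samples its lowest, median and highest levels were 1.58, 15.7 and 97.6 RPKM. The groups did not overlap, and the spinal samples 4 to 6 lay below the spinal samples 1 to 3. The difference was -3.89 (SE 0.77, adjusted p 0.0380), lower in 6 of 6 oculomotor samples, and -4.79 in samples 1 to 4 and -2.11 in samples 5 and 6. The call held in 3 of 12 fits that left out 1 sample, those without spinal sample 2 (adjusted p 0.0421, difference -3.37), 4 (0.0359) or 6 (0.0118). It passed in 5 of 9 other alternatives, and did not pass with the replicate block. With a pseudocount of 0.1 RPKM the difference was -6.61. Without spinal samples 1, 3 and 5 the adjusted p was 0.0861, 0.0569 and 0.0508. Without oculomotor samples 1 to 6 in turn it was 0.0812, 0.0843, 0.0835, 0.0707, 0.0809 and 0.0841.

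In the GFP-negative samples *Cyp26b1* was at 0.0644, 0.546 and 5.02 RPKM in oculomotor and at 6.55, 48.5 and 78.7 RPKM in spinal cultures. The groups did not overlap. The difference was -3.86 (SE 0.75, adjusted p 0.0107), lower in 6 of 6 oculomotor samples. The call held in 12 of 12 fits that left out 1 sample, and without spinal sample 2 the difference was -3.59 (adjusted p 0.0280). Between the fractions the difference was -1.01 (SE 0.75, adjusted p 0.568) in oculomotor and -0.98 (SE 0.75, adjusted p 0.732) in spinal cultures, with the GFP-positive sample lower in 5 of 6 pairs of each. With a pseudocount of 0.1 RPKM these differences were -2.66 and -1.10. At the offset of 1 RPKM they were -1.32 and -0.37 in samples 1 to 4. In samples 5 and 6 they were -0.41 and -2.20. With 1 sample left out the spinal difference ran from -1.51 to -0.46. Per length, *Cyp26a1* held a median of 16.5% of the summed RPKM of both hydroxylases in spinal GFP-positive samples and exceeded *Cyp26b1* in 1 of 6. In spinal GFP-negative samples its median share was 74.9%, and it exceeded *Cyp26b1* in 5 of 6.

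*Dhrs3* encodes a reductase that turns retinaldehyde into retinol and lies on the plus strand at chr4:144892827-144928209. Its lowest, median and highest levels were 0, 0.896 and 1.29 RPKM in oculomotor GFP-negative and 2.42, 11.0 and 18.9 RPKM in spinal GFP-negative samples. The groups did not overlap. The difference was -2.57 (SE 0.39, adjusted p 0.00122), lower in 6 of 6 oculomotor samples, and -2.52 in samples 1 to 4 and -2.66 in samples 5 and 6. The call held in 12 of 12 fits that left out 1 sample. In the same comparison 3 of 5 endoderm markers were called lower in oculomotor samples, and their part was not tested.

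In the GFP-positive samples *Dhrs3* was at 0, 0.11 and 0.297 RPKM in oculomotor cultures, with 3 of 6 samples at 0, and at 0.734, 2.53 and 6.91 RPKM in spinal cultures. The groups did not overlap, but the difference of -1.59 (SE 0.34, adjusted p 0.0561), lower in 6 of 6 oculomotor samples, did not pass. The oculomotor levels were all below the offset of 1 RPKM, and with a pseudocount of 0.1 RPKM the difference was -3.62 (SE 0.73). At the offset of 1 RPKM it passed without spinal sample 2 (adjusted p 0.0228) or spinal sample 4 (adjusted p 0.0373), and its adjusted p reached 0.151 without oculomotor sample 2. It also passed in 5 of 9 other alternatives: a pseudocount of 0.1 RPKM (adjusted p 0.0219), a filter at a mean of 1 RPKM (0.0415), median-of-ratios scaling (0.0311), sample quality weights (0.0155) and the fit of all 24 samples (0.0334). Over these 9 the adjusted p ran from 0.0155 to 0.320. The 5 fits called 229, 193, 149, 260 and 342 of all genes in the order given, against 116 in the main fit.

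Between the spinal fractions the difference of *Dhrs3* was -1.62 (SE 0.39, adjusted p 0.0355), with the GFP-positive sample lower in 6 of 6 pairs and the groups overlapping. This call held in 3 of 12 fits that left out 1 sample, those without GFP-negative sample 2 (adjusted p 0.00455), GFP-positive sample 4 (0.00670) or GFP-negative sample 4 (0.0362). Without GFP-positive samples 1, 2, 3, 5 and 6 the adjusted p was 0.0660, 0.0835, 0.0569, 0.0862 and 0.0657, and without GFP-negative samples 1, 3, 5 and 6 it was 0.0949, 0.0857, 0.0870 and 0.0525. Without both spinal samples of number 4 the difference was -1.91 (adjusted p 0.00719), and over the alternatives the adjusted p ran from 0.000742 to 0.576. With a pseudocount of 0.1 RPKM it was -1.99 and did not pass (adjusted p 0.214). Between the oculomotor fractions the difference was -0.64 (SE 0.39, adjusted p 0.438), lower in 5 of 6 pairs. It passed in 2 of 10 alternatives, sample quality weights (adjusted p 0.0380) and the fit of the 12 oculomotor samples alone (0.0353), and over all 10 the adjusted p ran from 0.0353 to 0.760. These 2 fits called 3795 and 2388 of all genes, against 1364 in the main fit. With a pseudocount of 0.1 RPKM the *Dhrs3* difference was -1.91. The interaction was 0.97 (SE 0.55, adjusted p 0.779), and 0.08 (SE 0.97) with that pseudocount. Between the spinal fractions 4 of 5 endoderm markers were also called lower in the GFP-positive samples. Their part in the levels of *Dhrs3* was not tested.

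*Aldh1a2* encodes a retinaldehyde dehydrogenase that makes retinoic acid and lies on the plus strand at chr9:71215789-71296243. It was listed at 0 in 10 of 24 samples and was above 1 RPKM in 7 of 24, with a highest level of 2.55 RPKM. In oculomotor GFP-positive samples 5 of 6 were at 0, and sample 1 was at 1.24 RPKM. The medians were 0.0874 RPKM in oculomotor GFP-negative, 1.69 in spinal GFP-positive and 0.562 in spinal GFP-negative samples, and the groups overlapped in all 4 comparisons. The difference between the GFP-positive groups was -0.99 (SE 0.32, adjusted p 0.253), with oculomotor lower in 4 of 6 samples of the same number. Over the alternatives it ran from -2.81 to -0.78.

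**Figure D3:**
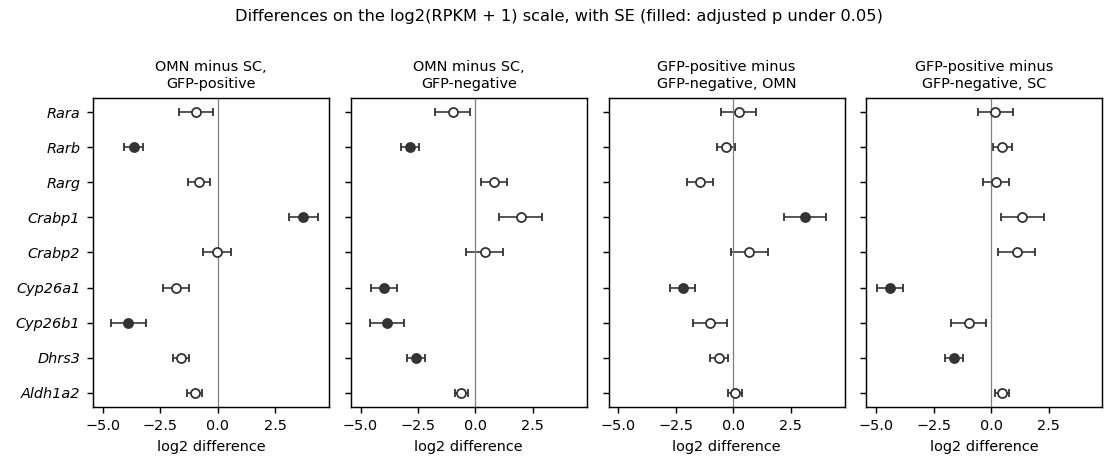
Difference of each member in the 4 comparisons on the log2(RPKM + 1) scale, as points with SE, filled where the adjusted p over all genes was under 0.05. *Rarb* lies at -3.65 and -2.85 between the cultures, and *Cyp26a1* at -2.21 and -4.40 between the fractions of the oculomotor and spinal cultures, where a pseudocount of 0.1 RPKM gave -4.85 and -5.28.

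Of 39 other genes of the pathway, listed by role (uptake and storage of retinol, synthesis, clearance, RXR partners, another binding route, co-regulators and genes known to respond to retinoic acid), 38 were in the table. Between the GFP-positive groups 0 were called higher and 4 lower in oculomotor samples among 35 tested (11 at an unadjusted p under 0.05 in limma, beside 1951 of 19240 genes), with a median difference of -0.24 beside -0.04 over all genes. Between the GFP-negative groups 1 was called higher and 6 lower among 38 tested (13 unadjusted, beside 2500 of 22179), with a median of -0.41 beside -0.04. Between the oculomotor fractions 1 was higher and 0 lower, beside 6.15% of all genes called, and 7 of 38 had an unadjusted p under 0.05 beside 4015 of 22179 genes, shares close to each other. In the spinal cultures 0 were higher and 3 lower between the fractions, and 9 of 38 had an unadjusted p under 0.05 beside 2315 of 22179. For the interaction limma called 0 of 38, and 4 of 38 had an unadjusted p under 0.05 beside 1582 of 22179.

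*Hoxb5*, a homeobox gene of the trunk, was at 0 to 1.54 RPKM in oculomotor and 20.1 to 265 RPKM in spinal GFP-positive samples, with differences of -6.21 (adjusted p 0.000196) and -5.14 (adjusted p 2.15e-06) in the GFP-positive and GFP-negative groups, each lower in 6 of 6. Both calls of *Hoxb5* held in 12 of 12 fits that left out 1 sample.

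The calls of the following genes between the cultures passed in fewer of the fits that left out 1 sample. *Hoxb4* differed by -3.20 (adjusted p 0.0478) in GFP-positive samples, lower in 6 of 6, and passed in 3 of 12 fits that left out 1 sample, with up to 0.123 without oculomotor sample 2. In GFP-negative samples *Hoxb4* differed by -2.78 (adjusted p 0.0272), lower in 6 of 6, and passed in 6 of 12, with up to 0.0682 without spinal sample 1. *Stra8* was listed at 0 in all 6 oculomotor GFP-positive samples and was at 0.641 to 384 RPKM in spinal ones. This call (adjusted p 0.0298, lower in 6 of 6) passed in 4 of 12 fits, with up to 0.0756 without oculomotor sample 2. Spinal sample 4, whose pair went against its labels, was the highest of both spinal groups for *Stra8* (384 RPKM GFP-positive and 427 RPKM GFP-negative). In GFP-negative samples *Stra8* differed by -4.36 (adjusted p 0.0314), lower in 6 of 6, and passed in 6 of 12, with up to 0.0801 without oculomotor sample 4. *Hoxd4* was listed at 0 in all 12 oculomotor samples and was at 0.673 to 74.8 RPKM in spinal GFP-negative samples (adjusted p 0.0498, lower in 6 of 6), passing in 2 of 12 with up to 0.106 without spinal sample 3. *Adh1*, an alcohol dehydrogenase gene, differed by -2.28 (adjusted p 0.0459) in GFP-negative samples, lower in 5 of 6 samples of the same number, and passed in 2 of 12, with up to 0.11 without spinal sample 6. It did not pass with a pseudocount of 0.1 RPKM (adjusted p 0.0781, in a range of 8.85e-05 to 0.496 over the alternatives). The endoderm markers *Sox17*, *Gata4* and *Gata6* were called lower in the same comparison as *Adh1*, and their part was not tested. *Aldh1a3*, a second retinaldehyde dehydrogenase gene, was higher in 6 of 6 oculomotor GFP-negative samples, by 1.91 (adjusted p 0.0345), and passed in 3 of 12, with up to 0.0909 without oculomotor sample 6. With a pseudocount of 0.1 RPKM the differences in GFP-positive samples were -8.76 for *Hoxb5*, -5.22 for *Hoxb4* and -8.58 for *Stra8*. In GFP-negative samples they were -7.84 for *Hoxb5*, -5.26 for *Hoxb4*, -6.10 for *Stra8*, -5.97 for *Hoxd4*, -3.73 for *Adh1* and 2.69 for *Aldh1a3*.

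Between the spinal fractions *Rbp4*, the gene of the retinol carrier of blood plasma, was at 0 to 5.01 RPKM in GFP-positive and 5.44 to 416 RPKM in GFP-negative samples. Its difference was -5.12 (adjusted p 0.000749), lower in 6 of 6 pairs. *Adh1* differed by -2.53 (adjusted p 0.0156) and was lower in 5 of 6 pairs. The *Adh1* difference was -1.77 in samples 1 to 4 and -4.03 in samples 5 and 6. Over the alternatives it ran from -4.51 to -1.77. Without both spinal samples of number 4, *Rbp4* differed by -5.70 (adjusted p 9.01e-06, with a range of 9.01e-06 to 0.101 over the alternatives). *Adh1* then differed by -3.12 (adjusted p 0.000358, with a range of 0.000219 to 0.476). Like *Rbp4* and *Adh1*, 4 of 5 endoderm markers were called lower in the spinal GFP-positive samples, and their part was not tested. Between the oculomotor fractions *Ncoa1*, a receptor coactivator gene, was higher in 6 of 6 pairs by 0.99 (adjusted p 0.0473), and passed in 1 of 12 fits that left out 1 sample, with up to 0.111 without GFP-positive sample 3. Of the RXR genes limma called 0 of 3 in each comparison, with 1 of 3 at an unadjusted p under 0.05 between the oculomotor fractions and 0 of 3 in the others. That gene was *Rxrg*, at a median of 7.23 RPKM in oculomotor GFP-positive and 0.917 RPKM in GFP-negative samples, with a difference of 1.55 (adjusted p 0.0874) that was higher in 5 of 6 pairs. *Rxrg* passed in 5 of 10 alternatives, over which its adjusted p ran from 0.000257 to 0.565, and in 2 of 12 fits that left out 1 sample, those without GFP-positive sample 3 (0.0153) or 4 (0.0460).

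For the 8 members whose root mean square deviation over the 24 samples was at least 1 on the log2 scale, the 3 genes with the most similar profile were taken by the smallest root mean square difference of centred values. For *Rarb* they were *Hoxd3* (0.69), *Tshz1* (0.71) and *Pou3f3* (0.77). For *Cyp26b1* they were *Hoxb6* (1.12), *Rarb* (1.14) and *Hoxd4* (1.19), so that 1 member was among the nearest genes of another. For *Cyp26a1* they were *Tinagl1* (0.84), *Gata6* (1.08) and *Nid1* (1.09), of which *Gata6* is on the endoderm list. For *Crabp1* they were *Mfap4* (1.41), *Phox2a* (1.43) and *Itpk1* (1.47), and *Phox2a* is the gene that the oculomotor line carries as a transgene. For *Dhrs3* they were *Cpm* (0.54), *Sfmbt2* (0.69) and *Pdxdc1* (0.72). For *Rara* they were *Nxn* (0.49), *Por* (0.56) and *Foxp4* (0.56). For *Rarg* they were *Ltbp4* (0.46), *Fgfr1* (0.47) and *Aspg* (0.48), and for *Crabp2* *Fam69b* (0.89), *Tecr* (0.97) and *Arl2* (0.98).

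Promoter windows of 250 bases before to 50 after the start, from RefSeq with build GRCm38.p6, were found for 8 of the 9 members (14 windows) and not for *Crabp2*. They were searched on both strands for direct repeats of the 6-base motifs AGGTCA or AGTTCA or GGGTCA or GGTTCA, in any combination, with 1, 2 or 5 bases between them, the arrangement that receptor pairs with RXR are known to bind. Among all 32851 windows 0.222% held a repeat with 1 base between, 0.268% with 2 and 0.0974% with 5, and 0.588% held any of them. Among the members 2 genes held one, *Rarb* and *Cyp26a1*, each with 5 bases between, and among the other pathway genes 1 of 26 with a window did. A match is a description of letters and not a shown binding site. *Rarb* and *Cyp26a1* were called between the cultures in the GFP-negative groups, and so were *Cyp26b1* and *Dhrs3*, whose windows held no repeat. The repeats found among the members are printed, and capitals mark the repeat. That of *Rarb* lies at chr14:16575513-16575529 on the minus strand, the strand of the gene, 36 bases before the RefSeq start and within a UTR exon of *Rarb* in GENCODE M21, so the repeat is shown without its surroundings. That of *Cyp26a1* lies at chr19:37697776-37697792, 15 bases before the start and outside annotated exons, and reads on the strand opposite to the gene. It is shown on the plus strand, the strand of the gene, with the bases around it at chr19:37697736-37697797.
*Rarb*: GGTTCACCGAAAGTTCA
*Cyp26a1*: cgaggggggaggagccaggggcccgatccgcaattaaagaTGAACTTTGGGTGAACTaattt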

How the data were processed

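RNA was measured in 24 samples, and all were used. The authors made SMART-seq2 libraries without molecular identifiers, mapped reads to mm10 (GRCm38) with HISAT2 2.0.3 and computed the deposited RPKM per gene with rpkmforgenes; counts were not used here, so the tests differ from the authors' DESeq2 1.12.4. Values were compared as log2(RPKM + 1) with limma 3.58.1 (trend) in R 4.3.3, for genes above 0 in at least 2 fitted samples, with Benjamini-Hochberg adjustment over all of them, two-sided, and a threshold of 0.05. The offset of 1 RPKM shrinks differences of genes near or below it. GFP-positive groups were compared in a fit of their 12 samples and the rest in a fit of all 24. Tables were made with pandas 2.3.3 and numpy 2.4.6, and figures with matplotlib 3.10.9, under Python 3.11.15.

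Depth was read from the RPKM steps of 5385 genes with 1 transcript; 95.8% to 97.8% of values under 10 reads lay within 2% of a whole number. Limits from depth cover counting error only. GFP-positive and GFP-negative samples of 1 number and culture were taken as pairs in counts of direction and in the replicate blocks, while the tests between fractions carry no term for the pairs. They were paired since their deviations from the group means correlated over 11952 genes at 0.379 to 0.728 in oculomotor and 0.421 to 0.661 in spinal cultures. Across cultures 4 of 6 correlations were above 0.1, and the main tests between cultures take no pairs. Counts given for samples of the same number, and the replicate block, do match samples across cultures by number.

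Genes named are the 9 members, pathway genes past the threshold in at least 1 comparison, the RXR genes and the 3 genes nearest to each member; some pathway genes that passed are counted but not reported here by name. Outside this rule, genes that set spinal libraries apart (*Isl1*, *Nanog*, *Mnx1*, *mt-Rnr2* and the gene models) and single markers (*Dppa5a*, *Ttr*, *Afp*, *Sox17*, *Gata4*) were named after their values were seen, and *Foxp1* and *Lhx1* as a whole list. Members and lists (pathway genes and markers of motor neurons, lateral motor column, neurons, neural progenitors, pluripotent cells, endoderm, mesoderm and neural crest) were chosen with earlier results of these data known. Positions come from GENCODE M21. Alternatives were another pseudocount and filter, scaling, sample weights, a replicate block, subsets of samples and leaving out each sample.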

Additional observations from a re-analysis of the deposited data

Results flagged for a closer look

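In 6 of 36 groups of 6 samples (9 genes in 4 groups), 1 sample lay far from the others, measured on the log2(RPKM + 1) scale as its gap to the nearest sample over the range of the group. About 1 in 20 groups of normally distributed values is picked out so by chance. That rate does not hold for groups with most samples at 0, as for *Cyp26a1*, *Cyp26b1* and *Aldh1a2* here. The gap over the range was 0.751 for *Rarg* in spinal GFP-positive sample 4 (10.3 RPKM), 0.659 for *Crabp2* in oculomotor GFP-negative sample 1 (371 RPKM) and 0.745 for *Cyp26b1* in oculomotor GFP-positive sample 2 (0.355 RPKM). For *Dhrs3* it was 0.65 in oculomotor GFP-negative sample 4, the one sample of its group at 0. It was 1 for *Cyp26a1* in oculomotor GFP-positive sample 3 (0.441 RPKM) and 1 for *Aldh1a2* in oculomotor GFP-positive sample 1 (1.24 RPKM), where the other 5 samples were at 0.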

How the results depend on the processing

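Of 463 differences of members under the alternatives, 432 stayed on their side of the threshold, 20 lost a call, 11 gained one and 0 called differences changed direction. Of 648 with 1 sample left out, 617 stayed, 29 lost a call and 2 gained one. In samples 1 to 4 alone, limma called 1 member between the GFP-positive groups (3 in all samples), 1 between the GFP-negative groups (4), 0 for the oculomotor fractions (2) and 0 for those of the spinal cultures (2), where 3 and 2 members had an unadjusted p under 0.05. In samples 5 and 6 alone it called 1, 2, 0 and 1 in the same comparisons, with 2 members at an unadjusted p under 0.05 where it called 0. All genes called in these comparisons numbered 30, 39, 476 and 1 in samples 1 to 4. In samples 5 and 6 they numbered 13, 299, 884 and 300. These subsets have fewer samples.

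Between the GFP-positive groups 5 alternatives gave 4 calls, with *Dhrs3* added: a pseudocount of 0.1 RPKM, a filter at a mean of 1 RPKM, scaling, sample quality weights and the fit of all 24 samples. In the same order these fits called 229, 193, 149, 260 and 342 of all genes, against 116 in the main fit. The filter at a mean of 1 RPKM left 11853 genes to test. With no filter on low values 2 members were called, with *Cyp26b1* lost (adjusted p 0.0843, in a range of 0.00130 to 0.189 over the alternatives). That fit called 81 of 22889 genes. Sample quality weights gave 4 calls between the oculomotor fractions, beside 3795 of 22179 genes, with 1364 in the main fit. A fit of only the 12 samples compared gave 3, with *Dhrs3* added, beside 2388 of 18932 genes. Between the spinal fractions a pseudocount of 0.1 RPKM gave 1 call and a fit of only the 12 samples compared gave 1. These fits called 255 and 4 of all genes, with 272 in the main fit. Without both spinal samples of number 4 the interaction had 1 call, *Cyp26a1*, beside 228 of all genes, with 71 in the main fit. The cause of these changes was not tested. With the replicate block, in which samples of 1 number are paired, the calls were 2, 4, 3, 2 and 0 in the order GFP-positive groups, GFP-negative groups, oculomotor fractions, spinal fractions and interaction. All genes called with this block numbered 73, 563, 2361, 416 and 133, and 116, 213, 1364, 272 and 71 in the main fits. Between the GFP-positive groups it lost *Cyp26b1*. With blocks set separately for the cultures, an alternative added once the data had been seen, the member calls were 3, 2 and 0 in the last 3. Beside them 3644, 649 and 453 of all genes were called. With 1 sample left out, the calls ran from 2 to 4, from 4 to 4, from 1 to 2, from 1 to 2 and from 0 to 0 in that order. With a filter at a mean of 1 RPKM *Aldh1a2* was not tested and has no value. Levels under 1 RPKM, as in most samples of *Aldh1a2*, are limited by depth.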
